A study of Ovis aries with 6 samples.

Results

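The genes described here belong to 6 solute carrier (SLC) families that move amino acids across membranes, SLC1, SLC3, SLC7, SLC36, SLC38 and SLC43. They were taken by gene name from the full table of 24390 genes, which gave 34 members. 1 of them, SLC7A6OS, is named for its place beside SLC7A6 and encodes a nuclear protein, not a transporter. RNA was sequenced from perirenal adipose tissue, which surrounds the kidney, of wild type Merino sheep of pure breeding. The 3 fetuses were taken at 132 days of gestation (term is at 150 days). The 3 lambs had been born, and every lamb carries the same 3 statements of age, namely 80 days after birth, 89 days and 12 weeks. Per the labels there was no treatment, although lamb titles include VEH, an abbreviation left unexplained there, and the labels do not state sex. With 1 animal behind each library, every stage has n = 3. Pieces of whole tissue were used, so fewer cells of a type and less RNA per cell cannot be told apart.

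Amino acids cross the plasma membrane through carriers of different kinds. Exchangers swap an amino acid inside the cell for another outside, sodium-coupled carriers drive uptake, and facilitators let amino acids pass down their gradient. Light chains of the SLC7 family reach the cell surface only when joined to a heavy chain of the SLC3 family, SLC3A2 (also called 4F2hc or CD98) for most of them and SLC3A1 for SLC7A9. In a scheme described in cultured cells, glutamine taken up by SLC1A5 leaves again through SLC7A5 with SLC3A2 in exchange for leucine, which activates the growth kinase complex mTORC1. In adipose tissue, SLC7A10 (ASC-1) is known as a surface protein of white adipocytes and SLC36A2 (PAT2) as one of brown and beige adipocytes.

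The 3 fetal libraries held 17535892 to 19150428 counts and the 3 lamb libraries 15907128 to 17263780. Levels are given as CPM, the count scaled to a library of fixed size, after TMM scaling, a method that lines up most genes between libraries, and differences are log2 values, lamb minus fetal, ± SE, with Benjamini-Hochberg adjusted p-values from edgeR's quasi-likelihood test over all genes tested. A gene was called at an adjusted p below 0.05. Genes of the mitochondrial genome took 27.5% to 40.7% of the counts in fetal libraries and 7.37% to 8.29% in lamb libraries. Scaling by library totals alone raised the median over all genes tested by 0.47 in log2. With the mitochondrial genome genes left out first, library totals shifted it by -0.01. General adipocyte markers were abundant in every library, with a summed level of 13922 to 17388 CPM in fetuses and 27926 to 38574 CPM in lambs. Summed markers of macrophages were at 186 to 415 CPM in fetuses and 1311 to 1626 CPM in lambs. Of 11 tested macrophage markers 8 were called higher and 0 lower, against 22.0% and 22.7% of all genes tested. Urothelial markers summed to 54.8 to 189 CPM in fetuses and 0.700 to 0.934 CPM in lambs, and red cell markers to 358 to 1273 CPM in fetuses and 30.5 to 56.4 CPM in lambs. Kidney tubule markers were at 3.22 to 5.80 CPM in fetuses and 3.06 to 6.10 CPM in lambs, with SLC34A1 and AQP2 at 0 counts in all 6 libraries. The part of these cell types in the results for the transporters was not tested, also where their values are set beside single genes.

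Of the 34 members, 25 had enough counts to be tested. Between the stages 14 of them changed, 10 higher and 4 lower in lambs, and 11 did not pass. That is 56.0% of those tested, against 44.7% of all 13624 genes tested. The members called higher were 40.0% of those tested, against a background of 22.0%, and those called lower were 16.0%, against 22.7%. Their median log2 difference was 0.23, and that of all genes tested was -0.01. Without SLC7A6OS, 9 of 24 were higher and 4 lower. The members that rose were SLC3A2, SLC7A2, SLC7A5, SLC7A8, SLC7A10, SLC7A6OS, SLC1A5, SLC38A2, SLC43A1 and SLC43A2. Those that fell were SLC7A6, SLC7A7, SLC38A4 and SLC38A10. The CPM values of the stages did not overlap for 15 of the 25, with lambs above for 11 and below for 4, against 57.7% of all genes tested (28.2% above and 29.5% below).

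**Figure D1:**
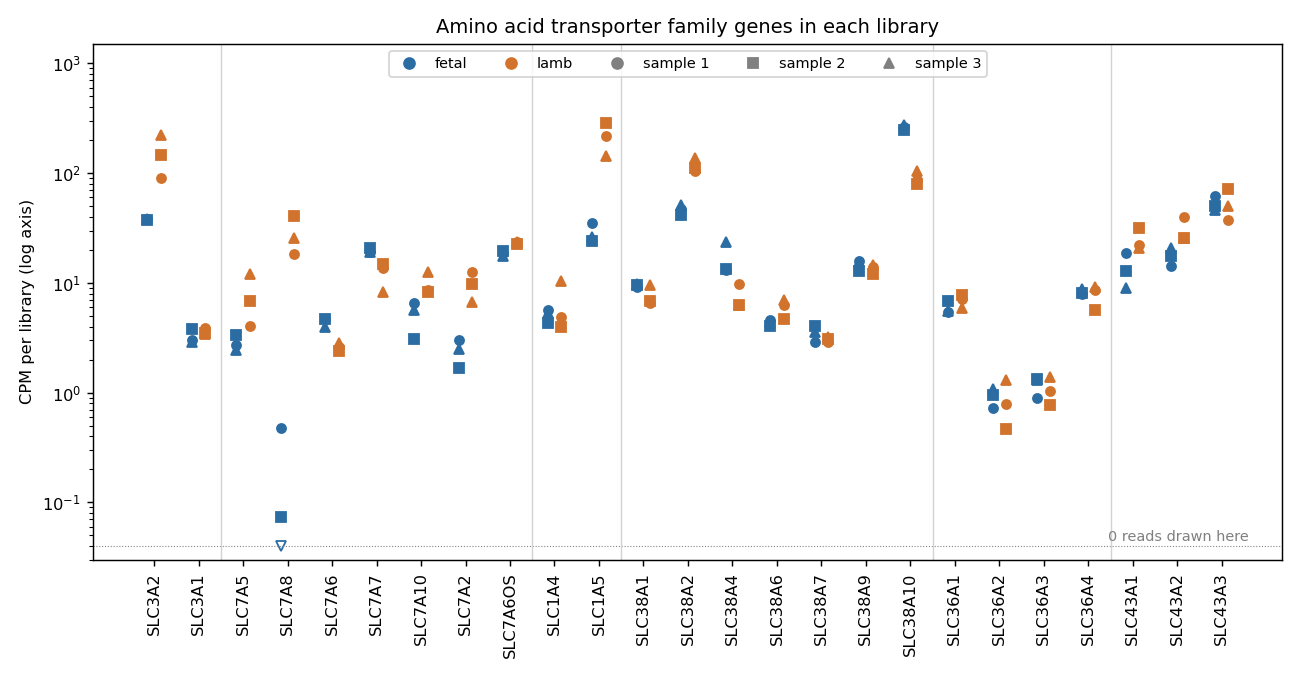
CPM of the 25 tested members in each of the 6 libraries on a log axis, with fetal libraries in blue, lamb libraries in orange and a symbol for each sample number. SLC7A8 lies at 0.478 CPM or below in all fetal libraries (an open triangle marks 0 reads) and at 18.4 CPM or above in all lamb libraries.

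**Figure D2:**
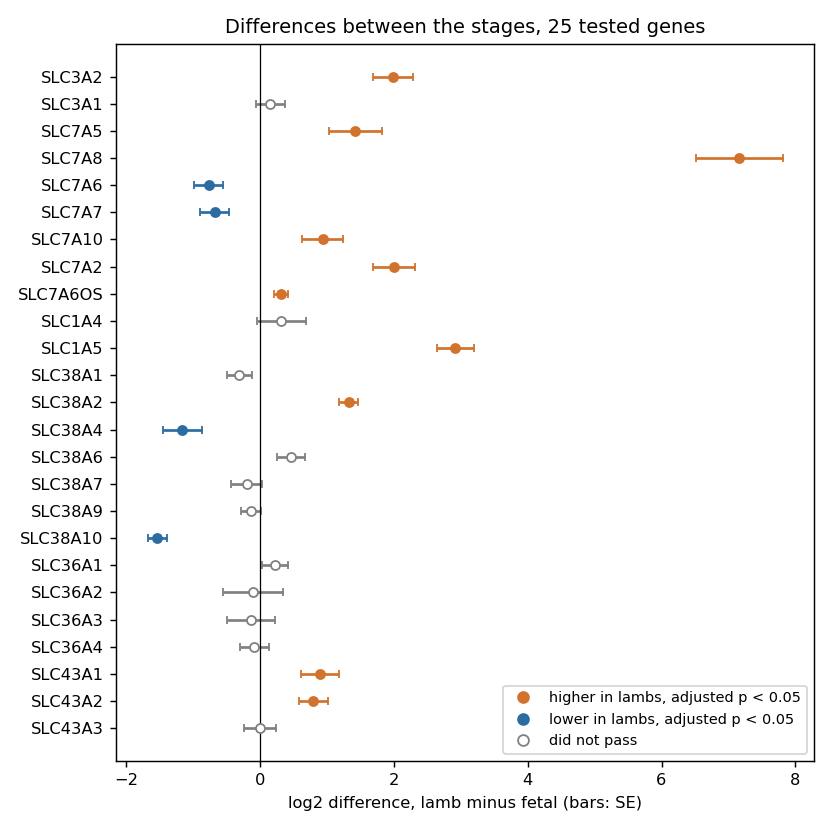
The log2 difference, lamb minus fetal, of each tested member with its SE as a bar; filled points passed an adjusted p of 0.05, orange for higher and blue for lower in lambs. Differences run from -1.53 for SLC38A10 to 7.16 for SLC7A8.

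The heavy chain gene SLC3A2 (ENSOARG00000017748, chromosome 21, 40550874 to 40581599 on the sheep assembly Oar v3.1) rose about 4-fold. Its levels were 38.6, 37.0 and 38.5 CPM in fetal samples 1, 2 and 3, and 89.4, 145.1 and 220.3 CPM in lamb samples 1, 2 and 3. The fetal values lay close together, the lamb values spread over 2.46-fold, and all lamb values were above all fetal values. The log2 difference was 2.00 ± 0.30 (adjusted p = 0.00153). The other heavy chain gene, SLC3A1, pairs with SLC7A9 and is known for cystine uptake in the kidney. It was at 2.99, 3.83 and 2.92 CPM in fetuses and 3.90, 3.53 and 3.40 CPM in lambs without passing the test (log2 difference 0.16 ± 0.22, adjusted p = 0.592). Its gene model overlaps that of PREPL by 8 bases, and PREPL was at 32.4 to 42.7 CPM, so reads from the shared end cannot be assigned where strand was not used. Its partner SLC7A9 had 2 reads over the fetal libraries and 2 over the lamb libraries, at or below 3 counts, the limit used here for detection.

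Among the 5 tested light chains that pair with SLC3A2, 3 rose and 2 fell, where 44.7% of all genes tested were called. SLC7A8 (LAT2, an exchanger of neutral amino acids; ENSOARG00000019354, chromosome 7, 21302166 to 21353769) went from near absence to moderate levels. It had 8, 1 and 0 reads in fetal samples 1, 2 and 3 and 373, 787 and 511 reads in lamb samples 1, 2 and 3. In CPM these were 0.478, 0.0736 and 0 in fetuses and 18.4, 40.8 and 25.5 in lambs. Every lamb library was far above every fetal library, and fetal sample 1 held 8 of the 9 fetal reads. The exact 95% Poisson interval of those 9 reads is 4.12 to 17.1, which covers counting error only. The log2 difference was 7.16 ± 0.65 (adjusted p = 1.82e-04), and 9.46 without fetal sample 1 (adjusted p = 3.88e-04). Direction and call were the same in all 18 alternatives. The size of the fold is uncertain, since fetal reads were few. The authors' mean RPKM (reads per kilobase of gene, scaled to library depth) gives a smaller contrast, 1.13 in fetuses and 25.4 in lambs. The fold in the authors' own deposited comparison was 145. Their mean RPKM can be above 0 where no reads were counted, as for SLC1A6 in fetuses (0.192 RPKM).

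SLC7A5 (LAT1, which brings in large neutral amino acids such as leucine; ENSOARG00000012129, chromosome 14, 12801358 to 12826768) rose from a low level. It was at 2.69, 3.38 and 2.45 CPM in fetuses and 4.05, 6.85 and 11.9 CPM in lambs (difference of 1.43 ± 0.39 in log2, adjusted p = 0.0210). The 3 lamb values again spread widely, with sample 3 at 2.95 times sample 1, the same order of samples as for SLC3A2. The call was lost without fetal sample 1 (adjusted p = 0.0609) or fetal sample 3 (0.0653) and with limma-voom (0.0548), within a range of 0.00210 to 0.0653 over the alternatives. SLC7A10 (ASC-1, an exchanger of small neutral amino acids; chromosome 14, 42932944 to 42942340), the white adipocyte surface gene, was at 6.52, 3.09 and 5.67 CPM in fetuses and 8.55, 8.30 and 12.6 CPM in lambs. It rose by 0.94 ± 0.30 on the log2 scale (adjusted p = 0.0376), with no overlap between the stages. The SLC7A10 call was lost without fetal sample 2 (adjusted p = 0.0720), fetal sample 3 (0.0645), lamb sample 1 (0.0570) or lamb sample 3 (0.111), within a range of 0.00794 to 0.111 over the alternatives. Its model overlaps the neighbouring LRP3 by 1787 bases. LRP3 itself was at 8.31 to 13.4 CPM in fetuses and 6.90 to 10.5 CPM in lambs (difference of -0.47 ± 0.25 in log2, adjusted p = 0.154), the opposite sign to that of SLC7A10.

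The 2 light chains that fell are the y+L exchangers, which let cationic amino acids such as arginine and lysine leave the cell against neutral ones. SLC7A7 (y+LAT1, the gene of lysinuric protein intolerance; ENSOARG00000019424, chromosome 7, 21622104 to 21648711) was at 19.0, 20.8 and 19.0 CPM in fetuses and 13.7, 14.9 and 8.25 CPM in lambs. All lamb values lay below all fetal values, and the log2 difference was -0.67 ± 0.22 (adjusted p = 0.0377). SLC7A6 (y+LAT2; chromosome 14, 34987963 to 35008602) was at 4.72, 4.71 and 3.94 CPM in fetuses and 2.62, 2.39 and 2.85 CPM in lambs (difference of -0.76 ± 0.21 in log2, adjusted p = 0.0219). Its stages did not overlap either. SLC7A7 is also expressed by macrophages, whose summed markers were higher in lambs, as given above. The part of macrophages in the SLC7A7 values was not tested.

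The size of both decreases moved with the scaling, and their calls lay near the threshold. Scaled by library totals, SLC7A7 was at -0.19 (adjusted p = 0.533) and SLC7A6 at -0.28 (0.410). With library totals after the mitochondrial genome genes were left out, they were at -0.68 (0.0405) and -0.77 (0.0225). On leaving out 1 library SLC7A7 ran from -0.83 to -0.45 and SLC7A6 from -0.85 to -0.70, so each stayed lower in lambs, with fewer samples behind each test. The SLC7A7 call was lost without fetal sample 1 (adjusted p = 0.0733), fetal sample 2 (0.111), fetal sample 3 (0.0825) or lamb sample 1 (0.0578), within a range of 0.0187 to 0.533 over the alternatives. That of SLC7A6 was lost without fetal sample 1 (0.0744), fetal sample 2 (0.0709) or lamb sample 2 (0.0556) and with replicate number as a blocking term (0.0606), within 0.0157 to 0.410. In the authors' deposited table neither passed, with adjusted p-values of 0.0528 for SLC7A7 and 0.0979 for SLC7A6.

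SLC7A7 and SLC7A8 are neighbours on chromosome 7, 268 kb apart, and moved in opposite directions. The make-up of the light-chain reads differed between the stages. SLC7A7 held 56.5%, 64.3% and 61.2% of the reads of the 6 light-chain genes in fetal samples 1, 2 and 3, and 28.9%, 20.3% and 13.4% in lamb samples 1, 2 and 3. SLC7A8 held 1.43%, 0.227% and 0% in fetuses and 38.9%, 55.7% and 41.5% in lambs. SLC7A10 kept a like share, 15.7 ± 5.40% in fetuses and 16.6 ± 4.74% in lambs (SD, n = 3), and SLC7A5 held 8.79 ± 1.45% and 12.4 ± 6.07%. SLC7A11, the cystine and glutamate exchanger xCT, had 7 reads over the fetal and 9 over the lamb libraries, so no difference was detectable at this depth. These are shares of reads, not of molecules, because the genes differ in length, and they do not depend on how libraries were scaled. They rest on the counts. For SLC7A5, SLC7A7 and SLC7A8 the change between the stages in the authors' mean RPKM differs by more than 25% from that of the counts. This holds for counts scaled by library totals, not by TMM. In RPKM SLC7A5 was at 2.23 in fetuses and 12.2 in lambs and SLC7A7 at 25.4 and 14.8, the same directions as in the counts.

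**Figure D3:**
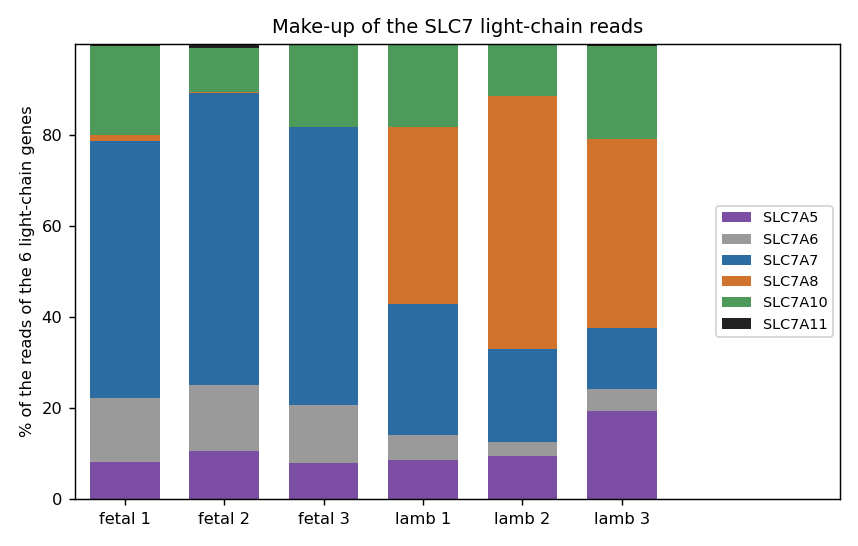
Share of the reads of the 6 SLC7 light-chain genes held by each of them, in percent, for each library. SLC7A7 (blue) holds 56.5% or more in every fetal library, and SLC7A8 (orange) 38.9% or more in every lamb library. Scaled by library totals, the counts of SLC7A5, SLC7A7 and SLC7A8 differ from the authors' RPKM in the size of the change.

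The summed CPM of the 6 light chains divided by that of SLC3A2 was 0.870, 0.875 and 0.806 in fetal samples 1, 2 and 3, and 0.530, 0.505 and 0.279 in lamb samples 1, 2 and 3. The mean ratio was 0.850 ± 0.0382 in fetuses and 0.438 ± 0.138 in lambs (SD, n = 3), with no overlap between the stages. It is a ratio of reads, so its size says nothing of how many chains pair, and it is given without a test. The sum is weighted by SLC7A7, the largest part of the fetal reads, which fell, whereas SLC7A8 rose by more than SLC3A2 on the log2 scale.

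The remaining SLC7 genes are not light chains. SLC7A2 (CAT2, a carrier of arginine and other cationic amino acids; ENSOARG00000009272, chromosome 26, 18440034 to 18463496) was at 2.99, 1.69 and 2.51 CPM in fetuses and 12.6, 9.70 and 6.75 CPM in lambs. All lamb values were above all fetal values, and the log2 difference was 2.00 ± 0.31 (adjusted p = 0.00172), called in all 18 alternatives. SLC7A4, a relative with no firmly known substrate, had 10 reads in fetal and 28 in lamb libraries, and SLC7A14, a lysosomal relative, 3 and 0. SLC7A6OS was at 18.7, 19.7 and 17.7 CPM in fetuses and 23.5, 22.8 and 23.5 CPM in lambs, a small increase of 0.32 ± 0.11 (adjusted p = 0.0457). Its call was lost in 13 of 18 alternatives, on leaving out any of the 6 libraries among them (adjusted p from 0.0639 to 0.160), and its adjusted p in the authors' deposited table was 0.320. SLC7A6OS starts 3.85 kb beyond the end of SLC7A6, which fell.

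In the SLC1 family the neutral amino acid exchanger SLC1A5 (ASCT2, a main route of glutamine uptake; ENSOARG00000010784, chromosome 14, 52938799 to 52948858) showed the largest rise after SLC7A8 among the members tested. It was at 35.1, 24.1 and 26.2 CPM in fetuses and 217.0, 285.5 and 143.2 CPM in lambs. The stages were far apart, and lamb sample 3, highest for SLC3A2 and SLC7A5, was lowest for SLC1A5. The log2 difference was 2.92 ± 0.28 (adjusted p = 2.27e-04), called in all 18 alternatives. Its relative SLC1A4 (ASCT1, which carries alanine, serine and cysteine) was at 5.68, 4.27 and 5.37 CPM in fetuses and 4.84, 3.94 and 10.3 CPM in lambs, with overlap (log2 difference 0.32 ± 0.37, adjusted p = 0.509). Without lamb sample 3 the SLC1A4 difference was -0.22. Of the reads of the 4 SLC1 members taken by name, SLC1A5 held 83.8 ± 1.55% in fetuses and 96.3 ± 2.92% in lambs. SLC1A3, listed as EAAT1, was not counted in these shares, and its mean was 29.0 CPM in fetuses and 25.5 CPM in lambs.

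The glutamate carriers of this family that were taken by name were scarce. SLC1A7 (EAAT5) had 15 reads in fetal and 34 in lamb libraries, and SLC1A6 (EAAT4) 0 and 3. Genes listed as EAAT1, EAAT2 and EAAT3, older names of SLC1A3, SLC1A2 and SLC1A1, fall outside the naming rule and were looked up after the values were seen. EAAT1 was at 23.9, 26.6 and 36.6 CPM in fetuses and 23.8, 15.9 and 36.7 CPM in lambs, short of the threshold (log2 difference -0.19 ± 0.30, adjusted p = 0.635). EAAT2 had 3 reads in each stage, and EAAT3 9 and 14. SLC7A1, SLC7A3 and SLC38A3 were not analysed here.

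In the sodium-coupled SLC38 family 1 tested member was higher, 2 were lower and 4 did not pass. The share called was 42.9%, close to the 44.7% of all genes tested. SLC38A2 (SNAT2, an uptake carrier for small neutral amino acids that is known to be induced when amino acids are short; ENSOARG00000019480, chromosome 3, 139936867 to 139947004) rose about 2.5-fold. It was at 47.5, 41.9 and 50.7 CPM in fetuses and 103.7, 111.7 and 136.4 CPM in lambs (difference of 1.33 ± 0.15 in log2, adjusted p = 3.94e-04). SLC38A10, a less studied member (ENSOARG00000018707, chromosome 11, 50597855 to 50636930), fell from 263.5, 248.6 and 271.8 CPM to 86.1, 80.1 and 104.4 CPM (log2 difference -1.53 ± 0.14, adjusted p = 1.82e-04). The values of both genes were tight within each stage and far apart between stages, and both were called in all 18 alternatives. SLC38A10 went from 73.0 ± 1.43% to 36.6 ± 1.08% of the family's reads, and SLC38A2 from 13.0 ± 0.450% to 47.6 ± 2.21%.

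SLC38A4 (SNAT4, known from liver and placenta; chromosome 3, 139520648 to 139569216) was at 13.0, 13.5 and 23.6 CPM in fetuses and 9.83, 6.28 and 6.35 CPM in lambs. The decrease was -1.16 ± 0.29 (adjusted p = 0.0142), with no overlap between the stages, and with library totals it was at -0.72 (adjusted p = 0.0910, within a range of 0.00114 to 0.0910 over the alternatives). SLC38A4, SLC38A2 and SLC38A1 stand in a row on chromosome 3, with gaps of 368 kb and 46.4 kb, and each gave a different result. SLC38A1 (SNAT1, a relative of SNAT2 with similar substrates) was at 9.27, 9.64 and 9.67 CPM in fetuses and 6.57, 6.85 and 9.65 CPM in lambs, short of the threshold (log2 difference -0.31 ± 0.19, adjusted p = 0.220). Without lamb sample 3 SLC38A1 was at -0.50 with an adjusted p of 0.0476, the only 1 of 18 alternatives in which it passed.

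Members of the SLC38 family that work at the lysosome did not pass. SLC38A9, the arginine sensor that reports to mTORC1, was at 16.0, 12.8 and 15.6 CPM in fetuses and 13.9, 12.1 and 14.5 CPM in lambs (difference of -0.13 ± 0.14 in log2, adjusted p = 0.489). SLC38A7, a lysosomal glutamine exporter, was at 2.87 to 4.05 CPM in fetuses and 2.87 to 3.20 CPM in lambs (adjusted p = 0.508). The sign of both differences was positive with library totals. SLC38A6 was at 4.05 to 4.60 CPM in fetuses and 4.72 to 6.95 CPM in lambs, with no overlap, yet did not pass (log2 difference 0.46 ± 0.21, adjusted p = 0.114). It passed without lamb sample 2 (0.0491) and with library totals (0.0166). SLC38A5 (SNAT5), SLC38A8 and SLC38A11 were too low to be tested, with 33, 13 and 19 reads in fetal and 9, 20 and 29 reads in lamb libraries. SLC38A5 had an adjusted p of 0.0303 in the authors' deposited table. In the fit here without a filter on low counts it was at -2.13 ± 0.86 (adjusted p = 0.0914).

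None of the 4 proton-coupled SLC36 genes passed the edgeR test, and at an unadjusted p below 0.05 there were 0 of them as well. SLC36A1 (PAT1, at the lysosome and cell surface) was at 5.38, 6.84 and 5.55 CPM in fetuses and 7.11, 7.73 and 5.95 CPM in lambs (difference of 0.23 ± 0.19 in log2, adjusted p = 0.363), and passed only with library totals (adjusted p = 0.0275). SLC36A4, carrying proline and tryptophan, was at 7.95, 8.17 and 8.71 CPM in fetuses and 8.55, 5.61 and 9.25 CPM in lambs. SLC36A2 (PAT2; ENSOARG00000008599, chromosome 5, 60093410 to 60120062), the gene known from brown adipocytes, had 12, 13 and 18 reads in fetuses and 16, 9 and 26 in lambs, or 0.717, 0.956 and 1.07 CPM and 0.791, 0.467 and 1.30 CPM. Its stages overlapped (log2 difference -0.10 ± 0.45, adjusted p = 0.871), and with so few reads a moderate change would not be detectable. Brown adipocyte markers as a list had 7 of 9 tested genes lower in lambs and 0 higher, against 22.7% and 22.0% of all genes tested. SLC36A3 was at 0.897 to 1.32 CPM in fetuses and 0.778 to 1.40 CPM in lambs. With library totals the differences of SLC36A2, SLC36A3 and SLC36A4 were positive.

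The SLC43 facilitators, which let branched-chain and other large neutral amino acids pass, rose in 2 of 3 cases. Of all genes tested, 22.0% were called higher. SLC43A1 (LAT3; chromosome 15, 77948389 to 77965571) was at 18.5, 12.7 and 8.89 CPM in fetuses and 22.2, 31.6 and 21.0 CPM in lambs (difference of 0.90 ± 0.28 in log2, adjusted p = 0.0330). SLC43A2 (LAT4; chromosome 11, 22314634 to 22352250) was at 14.3, 17.7 and 20.6 CPM in fetuses and 40.0, 25.6 and 25.8 CPM in lambs (difference of 0.80 ± 0.22 in log2, adjusted p = 0.0199). Neither gene's stages overlapped, but both spreads were wide beside the differences. The SLC43A1 call was lost without fetal sample 2 (adjusted p = 0.0938), fetal sample 3 (0.0792), lamb sample 1 (0.0547) or lamb sample 2 (0.0985), within 0.00248 to 0.0985 over the alternatives. The SLC43A2 call was lost without fetal sample 1 (0.0676) or fetal sample 2 (0.0601) and with replicate number as a blocking term (0.0509), within 0.00205 to 0.0676. SLC43A3, which carries purine bases and not amino acids, lies 51.3 kb from SLC43A1. It was at 62.4, 50.3 and 45.7 CPM in fetuses and 37.3, 71.3 and 50.5 CPM in lambs (difference of 0.01 ± 0.24 in log2, adjusted p = 0.987), a value whose sign differed between alternatives.

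Summed over the members of each family taken by name, without SLC7A6OS, reads shifted from SLC38 toward SLC1 and SLC3. SLC38 summed to 358.6, 335.3 and 380.7 CPM in fetuses and 229.7, 226.2 and 282.5 CPM in lambs. SLC1 summed to 33.9 ± 6.41 CPM in fetuses and 222 ± 67.9 CPM in lambs (SD, n = 3), and SLC3 to 41.3 ± 0.384 and 155 ± 65.4 CPM. SLC7 went from 35.0 ± 1.74 to 70.9 ± 11.7 CPM and SLC43 from 83.7 ± 10.4 to 108 ± 17.4 CPM. In each of these 5 families the stages did not overlap, with SLC38 the only one of them lower in lambs. Of all genes tested, taken singly, 57.7% did not overlap. SLC36 overlapped, at 16.3 ± 1.21 and 16.7 ± 1.81 CPM. The sums are dominated by their most abundant members and are given without a test. The SLC1 sum leaves out EAAT1 (SLC1A3), whose mean was 29.0 CPM in fetuses and 25.5 CPM in lambs. The SLC43 sum includes SLC43A3, the carrier of purine bases, which held 62.9% of the family's reads in fetuses and 48.3% in lambs. With library totals the log2 ratio of the SLC38 sums was -0.078, against -0.54 with TMM.

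**Figure D4:**
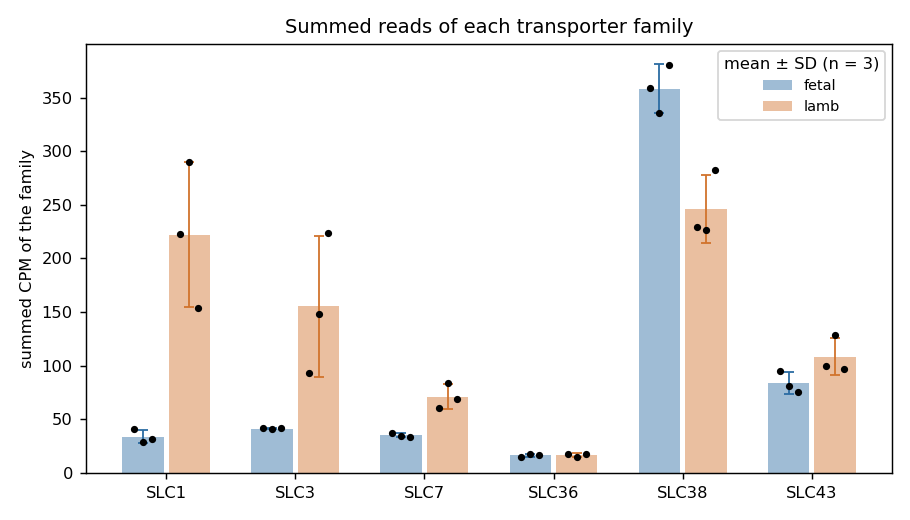
Summed CPM of the members taken by name in each transporter family, without SLC7A6OS and without EAAT1 (SLC1A3). SLC43 includes SLC43A3, which carries purine bases. Bars are the mean of fetal (blue) and lamb (orange) libraries with SD (n = 3), with a dot for each library. SLC1 rises from 33.9 to 222 CPM, and SLC38 goes from 358 to 246 CPM.

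Levels of different genes can be compared only per length, for which the authors' mean RPKM was used. It served for the 22 tested members whose RPKM and counts gave the same change between the stages within 25%. For this check counts were scaled by library totals, not by TMM, and it leaves out SLC7A5, SLC7A7 and SLC7A8. Changes in RPKM between the stages are thus not the differences tested with TMM. SLC43A3, for 1, went from 22.9 to 36.2 RPKM, with a log2 difference of 0.01 ± 0.24 with TMM. Among those 22, SLC38A10 stood highest in fetuses, at 65.5 RPKM, followed by SLC38A2 at 24.0, SLC43A3 at 22.9, SLC3A2 at 16.6, SLC7A6OS at 15.8 and SLC1A5 at 13.9 RPKM. In lambs the order was SLC1A5 at 142.8, SLC3A2 at 84.5, SLC38A2 at 75.5, SLC43A3 at 36.2 and SLC38A10 at 30.9 RPKM. These means carry no spread, so differences between neighbours in the order cannot be judged.

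Lamb samples differed among themselves in these genes. Lamb sample 3 was the highest of the 3 lambs for 14 of the 25 tested members, or 56.0%, against 35.4% of all genes tested. Among them were SLC3A2, SLC7A5, SLC7A10, SLC1A4 and SLC38A2, while SLC1A5 and SLC7A2 were lowest there.

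Genes of the wider amino acid network were taken from lists drawn up with earlier results known. Of 25 tested genes of the amino acid response, 11 rose, 4 fell and 10 did not pass (median log2 difference 0.55). ATF4, the transcription factor through which cells answer a lack of amino acids, rose from 268 ± 7.60 to 649 ± 69.6 CPM (log2 difference 1.28 ± 0.14), and ASNS, which makes asparagine, by 1.57 ± 0.21. The largest increases were ATF3 (4.30 ± 0.23), a stress-induced factor, CTH (4.15 ± 0.49), which makes cysteine, and DDIT4 (2.99 ± 0.20), an inhibitor of mTORC1. Targets of the same factor also fell, namely the lipoprotein receptor gene VLDLR (-1.90 ± 0.32), PHGDH (-1.59 ± 0.52) and TRIB3 (-0.85 ± 0.24). ATF4 and ASNS were singled out after their values were seen. Of 35 genes of amino acid sensing by mTORC1, 10 rose, 8 fell and 17 did not pass (median -0.02). SESN1, a stress-induced inhibitor of mTORC1, rose by 1.98 ± 0.21 and the activating GTPase gene RHEB by 1.04 ± 0.13, while TBC1D7, of the TSC complex, fell by 1.19 ± 0.18.

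Enzymes that handle the carried amino acids moved in both directions. Of 13 genes of glutamine, glutamate and asparagine metabolism, 3 rose, 2 fell and 8 did not pass (median 0.18). GLUL, which makes glutamine, rose from 500 ± 48.0 to 1798 ± 389 CPM (log2 difference 1.85 ± 0.20), and GFPT2, which spends glutamine on hexosamines, by 3.01 ± 0.17. The aspartate aminotransferase genes GOT1 and GOT2 fell by 3.57 ± 0.25 and 2.33 ± 0.20. Of 14 genes of glutathione and cystine, 4 rose, 2 fell and 8 did not pass (median 0.26), with CBS at 1.37 ± 0.20 and GSS, the last enzyme of glutathione synthesis, at -2.84 ± 0.31. Of 15 genes of arginine and polyamine metabolism, 7 rose, 3 fell and 5 did not pass (median 0.67). Arginase ARG2 rose from 3.74 ± 0.616 to 14.0 ± 2.14 CPM (log2 difference 1.91 ± 0.20) and ASS1, which rebuilds arginine from citrulline, by 1.85 ± 0.19. The nitric oxide synthases, which use arginine, fell, with NOS2 at -2.92 ± 0.26 and NOS3 at -1.55 ± 0.21.

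Of 14 tested amino acid and peptide carriers outside the 6 families, 4 rose, 5 fell and 5 did not pass (median -0.12). The taurine carrier SLC6A6 rose by 1.33 ± 0.31 and the lysosomal peptide carrier SLC15A3 by 1.44 ± 0.38. The mitochondrial aspartate and glutamate carriers SLC25A12 and SLC25A13 fell by 2.27 ± 0.18 and 1.73 ± 0.37. Of 11 genes of partners and regulators of the carriers, 5 rose, 2 fell and 4 did not pass (median 1.28). MYC, a known activator of SLC1A5, rose by 2.24 ± 0.22, HIF1A by 2.72 ± 0.18 and ARL6IP5, which binds glutamate carriers, by 1.42 ± 0.12. BSG, a surface chaperone of lactate carriers found with SLC3A2, fell by 1.13 ± 0.23. Each count is to be read against the background of 44.7% of all genes called, since the shares of these 7 lists ran from 38.5% to 66.7%.

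**Figure D5:**
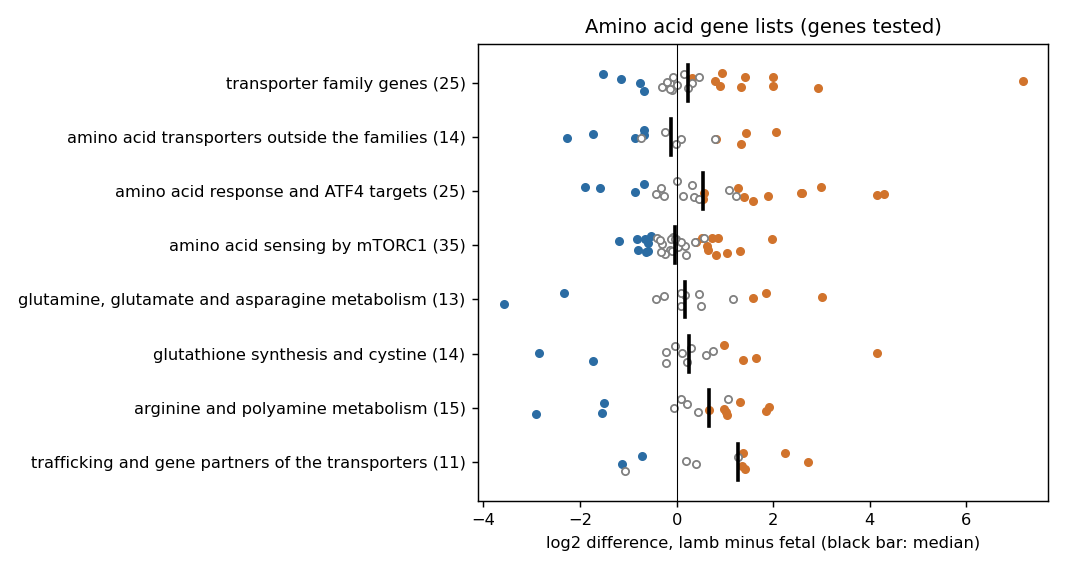
The log2 difference, lamb minus fetal, of each tested gene in the transporter families and the 7 lists of the amino acid network, with the number of genes in brackets; filled points passed the test, orange for higher and blue for lower, and black bars are medians. Medians run from -0.12 for the other amino acid carriers to 1.28 for the partners and regulators.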

How the data were processed

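Per the labels' protocols, RNA of perirenal fat from 3 fetuses and 3 lambs was made into TruSeq libraries, and the 6 libraries were read as single-end 50 bp reads on 1 flowcell. Per the series design text, the authors placed the reads on Oar v3.1 with Ensembl models in CLC Genomics Workbench 7.0. How reads with several placements were handled, and whether strand was used, is not stated there. The deposited tables hold raw read counts per gene and library, the unit of the tests. They also give the authors' mean RPKM per stage, used for description, and, from the authors' own comparison, an adjusted p-value and a signed fold score. A further 12 columns hold RPKM by library and were set aside, since a sample name occurs more than once in their headers.

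The test of these counts was made by edgeR 4.0.16 under R 4.3.3 (filterByExpr, TMM, quasi-likelihood F test, no covariates), over 13624 genes. CPM is the count scaled to the TMM-adjusted library size, and 3 counts in a library correspond to 0.148 to 0.221 CPM. The SE is the size of the log2 difference divided by the root of F. Alternatives used DESeq2 1.42.0, limma 3.58.1, other scalings and filters, and each library left out. The method was tested on simulated data. Members and lists were chosen with earlier results of these data known. Older names PPARG2, IGJ and C7orf60 stood for PPARG, JCHAIN and BMT2. Every called member at 1 CPM or more in the higher stage was named with its values, and from each list up to 3 called genes per direction could be. Cell type markers were 15 lists. A motif search in promoters, planned earlier, was not run.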

Additional observations from a re-analysis of the deposited data

How the results depend on the processing

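Over 18 alternatives, SLC3A2, SLC7A2, SLC7A8, SLC1A5, SLC38A2 and SLC38A10 kept their direction and their call in each. On leaving out 1 library the number of members called higher ranged from 6 to 9 and called lower from 2 to 5, with the median log2 difference between 0.18 and 0.31. With library totals 12 members were higher, 1 was lower and the median was 0.72, against 10, 4 and 0.23. Of the genes called, 79.3% of all genes and 92.3% of members were then higher, against 49.3% and 71.4% with TMM. With library totals after leaving out mitochondrial genome genes, a setting chosen after seeing the data, 9 members were higher and 4 lower.

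With library totals the log2 ratios of family sums were 3.18 (SLC1), 2.38 (SLC3), 0.51 (SLC36), -0.078 (SLC38), 0.85 (SLC43) and 1.49 (SLC7), against 2.71, 1.91, 0.03, -0.54, 0.37 and 1.02. Uncalled members changed sign under it, at 0.36 (SLC36A2), 0.34 (SLC36A3), 0.38 (SLC36A4), 0.16 (SLC38A1), 0.28 (SLC38A7) and 0.33 (SLC38A9). Without lamb sample 2, SLC36A2, SLC36A3, SLC36A4 and SLC43A3 were at 0.19, 0.056, 0.11 and -0.26. Without fetal sample 3, SLC36A2 was at 0.03 and SLC43A3 at -0.09, and without lamb sample 3 SLC1A4 was at -0.22. Over the 6 libraries left out in turn, SLC1A4 ran from -0.22 to 0.57, SLC36A2 from -0.53 to 0.19, SLC36A3 from -0.37 to 0.056, SLC36A4 from -0.22 to 0.11 and SLC43A3 from -0.26 to 0.21. SLC43A3 was at -0.051 with upper quartile factors, -0.033 with limma-voom, -0.029 with the replicate block, -0.02 without fetal sample 2 and -0.0029 with library totals without mitochondrial genome genes. Other than through the scaling itself, the cause was not tested.

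The labels do not say that the sample numbers pair animals. Same-numbered samples had correlations of -0.01, -0.12 and 0.04 in their deviations from the stage means. With the number as a block 5353 genes were called, against 6095, and 8 members were higher and 3 lower. Counting error limits the 9 untested members, SLC36A2 and the fetal level of SLC7A8.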
